A study of Mus musculus with 8 samples.

Results

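The genes described here carry cholesterol and triglyceride in plasma or move cholesterol across and within cells. They are 34 listed genes: plasma apolipoproteins, sterol transporters, lipases and lipid transfer enzymes, receptors, intracellular sterol handlers and the LXR nuclear receptors. They were chosen by symbol among the probes of the authors' processed table, which held 28 of the 34 genes with 39 probes, out of 40554 probes in all. The other 6 (Apoa4, Apoc1, Apoc3, Apoc4, Apoh and Apon) had no probe in that table but were found on the arrays through their RefSeq accessions, and they are given here with that mark. A total of 33 members were measured above background. The remaining one, Npc1l1, the intestinal cholesterol importer, was well above background on 0 of 8 arrays.

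Liver RNA came from male C57BL/6J mice on a high-fat diet for 3 months, in 4 samples of wild-type animals (WT) and 4 of animals lacking the microRNA miR-223 (miR-223KO). Every sample, controls included, had the diet, and no chow-fed group was analysed here. Agilent 2-colour arrays, 1 per sample, carried the liver RNA in Cy5 against a common reference, Ambion Mouse Assorted Total RNA, in Cy3, with no dye swap. The labels describe miR-223KO no further. They do not name the animals, so a p-value here measures sample-to-sample spread, which may be technical. Values below are log2 ratios of liver over reference RNA, and differences are miR-223KO minus WT on the log2 scale. Whole liver was used, so fewer cells of a type and less RNA per cell cannot be told apart.

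The liver makes most plasma apolipoproteins. It assembles ApoB with triglyceride into very-low-density lipoprotein (VLDL), and it releases ApoA-I, which takes up cholesterol through the exporter ABCA1 to form high-density lipoprotein (HDL). HDL cholesterol returns to the liver through the receptor SR-BI, encoded by Scarb1, and leaves in bile through the ABCG5 and ABCG8 pair. LXR nuclear receptors sense oxysterols and switch on several of these transporters. miR-223 is a microRNA abundant in myeloid cells, and published work in cultured hepatic cells has placed Scarb1 among its targets and reported an effect on Abca1.

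The deleted microRNA is shown first, since its seed (bases 2 to 8, in capitals) sets which transcripts it can pair with. Both mature arms lie on the X chromosome, at chrX:96242884-96242905 for the 3p arm and chrX:96242842-96242864 for the 5p arm (plus strand, RefSeq, GRCm38.p6). No probe of the array is named for Mir223, so the knockout was not checked on these arrays.
mmu-miR-223-3p: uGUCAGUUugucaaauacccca
mmu-miR-223-5p: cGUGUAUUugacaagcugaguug

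Between 49.5% and 69.8% of spots were well above background in Cy5, and no spot was saturated. Slide 1 held replicates 1 and 2 of both groups, and slide 2 held replicates 3 and 4. The scanner's outlier flags were more frequent on the members. Counting 1 reading per probe and array, 27.6% of the members' readings had a flagged spot. Of all single non-control spots, 3.77% were flagged. The 620 probes missing from the authors' table were all flagged as non-uniform on 5 or more arrays. Flagged spots were kept here. All 8 hepatocyte markers tested were well above background on 8 arrays.

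None of the 33 members passed the test between miR-223KO and WT (limma, Benjamini-Hochberg over 17803 genes and unnamed probes, threshold 0.05), and their smallest adjusted p was 0.976. Over all genes 1 passed, which is 0.00562%. At an unadjusted p under 0.05 stood 2 members, Apoc3 and Apoa4, or 6.06%, against 4.71% of all genes. Both are among the 6 genes with no probe in the authors' table. In 0 of 33 members did the groups fail to overlap, against 2.75% of all genes. The differences ran from -0.53 (Apoc3) to 0.56 (Apoa4), with 21 above 0 and 12 below and a median of 0.09, against -0.010 for all genes. Of the 27 measured members with a probe in the authors' table, 0 stood at an unadjusted p under 0.05 (limma). Among these 27, 19 lay above 0 and 8 below, with a median of 0.16. When only that table's probes were used, 0 again stood under 0.05, and the median was 0.09. A miss of the threshold does not show equal levels: the median standard error (SE) was 0.23. For 31 of 33 members the 95% interval of the brightest probe lay within 1 of 0, and so did not take in a 2-fold difference. The exceptions were Apoa4, with an upper bound of 1.12, and the phospholipid transfer protein gene Pltp, with a lower bound of -1.03. A dimmer probe of Apob also reached past it, with a lower bound of -1.02.

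**Figure D1:**
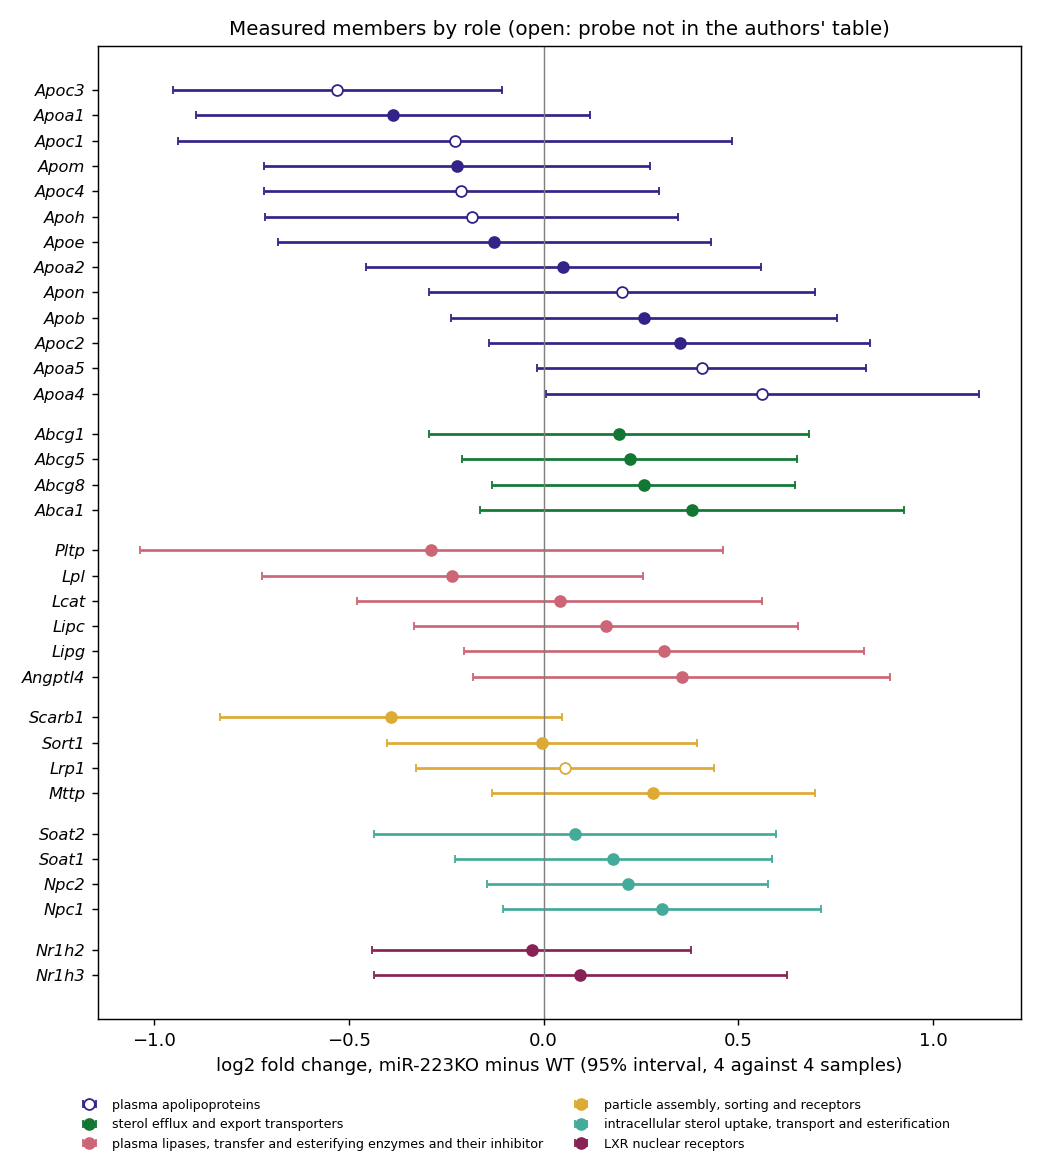
Differences between miR-223KO and WT (log2, horizontal axis) of the 33 measured members, grouped by role, with 95% intervals from limma on 4 against 4 samples. Open points are probes absent from the authors' table. The intervals of 31 members cross 0, and those of Apoc3 and Apoa4 end just short of it, at -0.11 and 0.0073.

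The 13 plasma apolipoproteins stood on both sides of 0, with 6 above it, 7 below and a median of -0.13. The members nearest to the threshold were neighbours on chromosome 9, where Apoa1, Apoc3, Apoa4 and Apoa5 follow one another with no other protein-coding gene between them. Their differences did not share a direction: Apoc3 and Apoa1 lay below 0, and Apoa4 and Apoa5 above it. Apoc3, the inhibitor of lipoprotein lipase carried on VLDL, measured 0.80, 1.27, 1.21 and 1.22 in WT replicates 1 to 4 and 0.19, 0.84, 0.60 and 0.74 in miR-223KO replicates 1 to 4. The lowest WT value, of replicate 1, lay below the highest miR-223KO value, so the groups overlapped by that sample alone. The difference was -0.53 (SE 0.20, a factor of 1.44, limma unadjusted p = 0.0173, adjusted p = 0.976), with -0.52 on slide 1 and -0.54 on slide 2. A further Apoc3 probe, dimmer, gave 0.04 (SE 0.20) with all values between 0.44 and 1.18. Neither probe stood in the authors' table, and the brighter was flagged on 7 of 8 arrays.

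Apoa4, an apolipoprotein of intestine and liver that attaches to HDL and chylomicrons, measured -0.88, -0.04, 0.20 and 0.51 in WT and 0.85, 0.28, 0.52 and 0.38 in miR-223KO. The WT values were spread over a wider range, from the lowest of all 8 arrays to just below the second highest. The difference was 0.56 (SE 0.26, limma unadjusted p = 0.0474, adjusted p = 0.976), with 1.02 on slide 1 and 0.10 on slide 2, and it was 0.29 without WT replicate 1. The probe was flagged on 7 arrays. Apoa4 is also made by the intestine, and of 6 enterocyte markers on the array 3 were above background on enough arrays to be tested, while Vil1 and Cdx2 were above it on 0. The mean of the 3, less the mean of all genes tested on the same array, ran from -0.22 to 0.07 in WT and from -0.28 to 0.21 in miR-223KO.

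Apoa5, which aids lipolysis of triglyceride-rich particles, measured 0.20, -0.04, -0.54 and -0.12 in WT and 0.29, 0.02, 0.45 and 0.36 in miR-223KO by its brightest probe. One miR-223KO sample, replicate 2, fell within the WT range and the other 3 lay above it. The difference was 0.41 (SE 0.20, limma unadjusted p = 0.0584, adjusted p = 0.976), but the Apoa5 probe in the authors' table gave -0.19 (SE 0.23). The brightest probe was absent from that table and was flagged on 5 of 8 arrays. Apoa1, the main protein of HDL, measured 1.14, 1.00, 0.89 and 1.95 in WT and 1.24, 0.78, 0.75 and 0.67 in miR-223KO. WT replicate 4 stood above the other 7 samples, which ran from 0.67 to 1.24. The difference was -0.39 (SE 0.24, limma adjusted p = 0.976), and it was -0.15 without that replicate. The Apoa1 probe was flagged on all 8 arrays, and the authors' deposited table gave -0.54 for the same probe.

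The second cluster, on chromosome 7, holds Apoc2, Apoc4, Apoc1 and Apoe side by side. Apoc2, the cofactor that lipoprotein lipase needs, measured -0.04, -0.56, 0.21 and -0.48 in WT and -0.29, -0.05, 0.38 and 0.48 in miR-223KO. The 2 highest values were of miR-223KO on slide 2, and the other samples were mixed. Its difference was 0.35 (SE 0.23, limma adjusted p = 0.976). Apoe, the ligand by which remnants are cleared, differed by -0.13 (SE 0.26), Apoc1 by -0.23 (SE 0.33) and Apoc4 by -0.21 (SE 0.24). Within slides these 3 parted: Apoe gave 0.42 on slide 1 and -0.67 on slide 2, Apoc1 0.36 and -0.81, and Apoc4 0.0085 and -0.43.

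Of the remaining apolipoproteins, Apom, the carrier of sphingosine-1-phosphate on HDL, differed by -0.22 (SE 0.23), and Apoh, a phospholipid-binding plasma protein, by -0.18 (SE 0.25). Apoa2, another HDL protein, differed by 0.05 (SE 0.24), and Apon by 0.20 (SE 0.23). Their groups overlapped in every case. Apob, the structural protein of VLDL, was measured by 5 probes that gave 0.26, 0.04, 0.02, -0.14 and -0.45, each with an SE of 0.23 to 0.29. They did not agree in sign within this one gene, and the range between them was wider than any SE. The 4 Apob probes of the authors' table are 60 bases long, and their first 30 bases are printed here so that the probes behind these values can be told apart, in the order of their differences from highest to lowest.
Apob probe at 0.26: atttgttggtgagtccacaagattgattga
Apob probe at 0.04: gactgggagagacaagtagctggtgccaag
Apob probe at 0.02: ccagcagttccactccaatctgcaggattt
Apob probe at -0.45: gttgacacattgaagttcctagttcaagca
By slide, all 5 probes were above 0 on slide 1 and below 0 on slide 2, though the probe at -0.45 stood at only 0.0022 on slide 1. The 5 probes read the same samples, so their agreement on the slides is not independent.

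**Figure D2:**
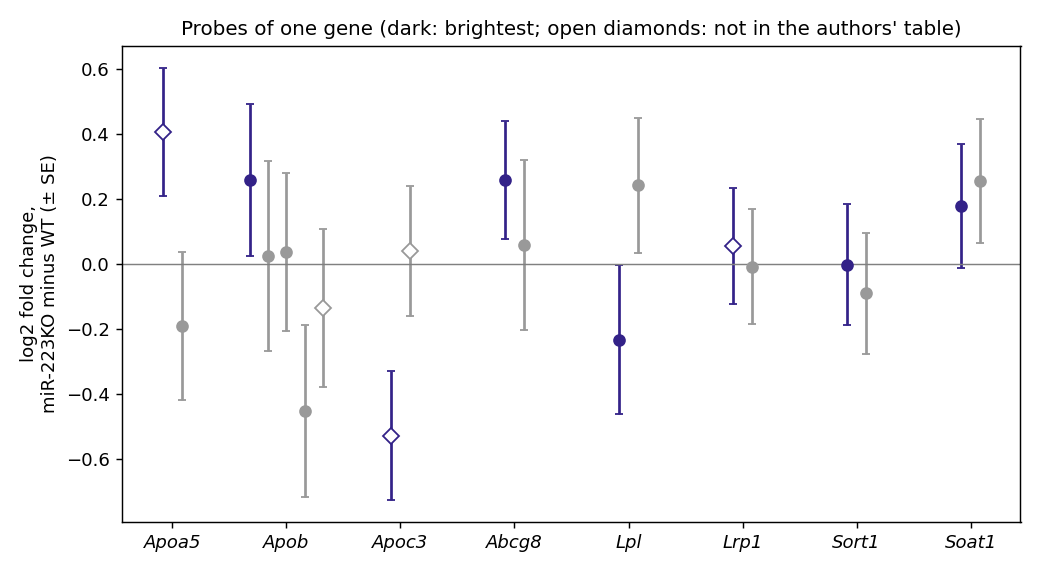
Differences between miR-223KO and WT (log2, ± SE, n = 4 against 4) for every probe above background of the 8 members with more than 1 such probe, brightest first. Points of Apoa5, Apob, Apoc3, Lpl and Lrp1 lie on both sides of 0, and those of Abcg8, Sort1 and Soat1 on one side.

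All 4 sterol exporters lay above 0, with a median of 0.24, and none passed the test. Abca1, which loads cholesterol onto ApoA-I, measured -0.07, 0.65, 0.37 and 0.63 in WT and 0.56, 1.56, 0.50 and 0.49 in miR-223KO. Apart from miR-223KO replicate 2, which stood far above the rest, the miR-223KO values lay inside the WT range. The difference was 0.38 (SE 0.26, limma unadjusted p = 0.157, adjusted p = 0.976), and without that replicate it was 0.12. It was 0.77 on slide 1 and -0.0091 on slide 2. The Abca1 probe, with no flag on any array, begins as follows.
Abca1 probe: gttgcatccctttttgtagaacatttatat
Abcg5 and Abcg8 are neighbours on chromosome 17 and encode the partners that join into one biliary and intestinal sterol exporter. Their differences were close, at 0.22 (SE 0.20) and 0.26 (SE 0.18), and a dimmer Abcg8 probe gave 0.06 (SE 0.26). Abcg1, which passes cholesterol to mature HDL in macrophages, differed by 0.19 (SE 0.23) and was above background on 2 of 4 WT and 4 of 4 miR-223KO arrays. The authors' deposited table gave 0.71 for that probe. The 4 exporters stayed above 0 in the fits with other scalings of the log ratio, whereas in Cy5 alone Abcg5 was at -0.025 and within slide 1 Abcg1 was at -0.06.

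Scarb1 differed by -0.39 (SE 0.21, limma unadjusted p = 0.0766, adjusted p = 0.976), with a 95% interval from -0.83 to 0.05. Its values were 0.26, 0.05, -0.03 and 0.25 in WT and -0.74, -0.15, 0.15 and -0.30 in miR-223KO. miR-223KO replicates 1, 2 and 4 lay below every WT sample, and replicate 3 lay within the WT range. The direction was the same on both slides, at -0.60 and -0.18, and the value ran from -0.53 to -0.23 when each sample was left out in turn. Split by channel after normalisation between arrays, liver RNA differed by -0.07 and the common reference by 0.32, so most of the ratio's difference stood in the channel that holds the same RNA on every array. Apoa1 had a like split, with -0.08 in liver RNA and 0.31 in the reference, and so had Mttp, with 0.00027 and -0.28. Abca1 gave 0.18 in liver RNA and -0.20 in the reference, and the brighter Apoc3 probe -0.30 and 0.23. Among the 33 members 11 had a larger difference in the reference channel than in liver RNA. The cause was not tested. Scarb1 was measured by 1 probe, flagged on 2 arrays, and its first bases are shown since the receptor is a published miR-223 target.
Scarb1 probe: tgctatgtcactgaattaaccactgtacgt

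**Figure D3:**
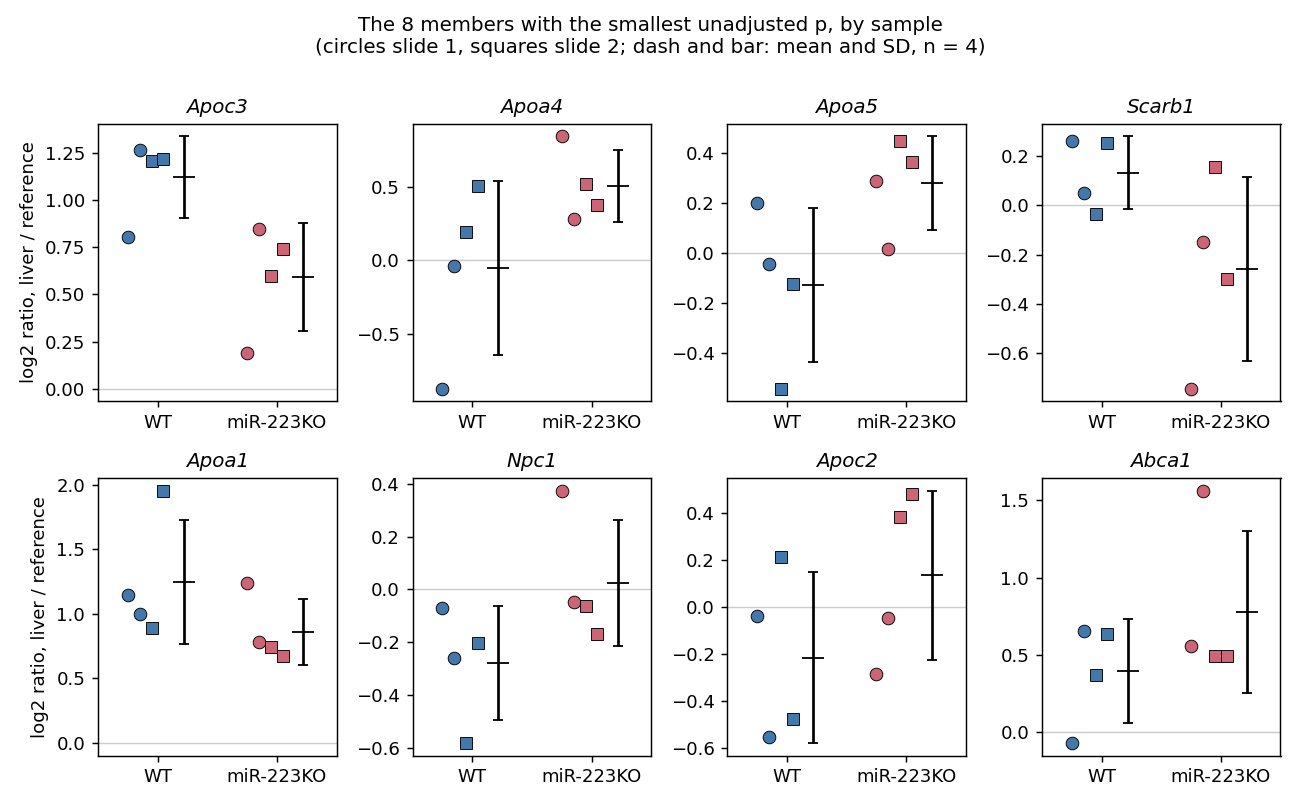
Log2 ratio of liver over reference RNA in each WT (blue) and miR-223KO (red) sample for the 8 members with the smallest unadjusted p. Circles are slide 1, squares slide 2, and the dash and bar give mean and SD of 4 samples. In every panel the 2 groups overlap.

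Among the other genes of particle assembly and uptake, Mttp, the transfer protein that lipidates ApoB, differed by 0.28 (SE 0.19). It was at 0.085 from scanner signals without loess and at 0.51 with median centring, and in liver RNA alone the difference was 0.00027. Sort1, a sorting receptor that binds ApoB particles, was at -0.0035 (SE 0.19), and Lrp1, a remnant receptor, at 0.05 (SE 0.18). That Lrp1 probe was flagged on 8 arrays and absent from the authors' table, whose dimmer Lrp1 probe gave -0.0092 (SE 0.18). The interval of Sort1 ran from -0.40 to 0.39, by a probe above background on 2 of 4 WT and 4 of 4 miR-223KO arrays. A dimmer Sort1 probe gave -0.09 (SE 0.19). Plasma enzymes and their regulators gave 4 values above 0 and 2 below, with a median of 0.10. Angptl4, an inhibitor of lipoprotein lipase, differed by 0.35 (SE 0.25), the endothelial lipase gene Lipg by 0.31 (SE 0.24) and the hepatic lipase gene Lipc by 0.16 (SE 0.23). The gene for the cholesterol-esterifying enzyme of HDL, Lcat, was at 0.04 (SE 0.24), and Pltp was at -0.29 (SE 0.35), the least precise of the members. Lpl itself gave -0.23 (SE 0.23) by its brightest probe and 0.24 (SE 0.21) by its other, so its direction was not settled by these probes.

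The 4 measured genes of intracellular sterol handling all lay above 0, with a median of 0.20, and none passed the test. Npc1, which exports cholesterol from lysosomes, measured -0.07, -0.26, -0.58 and -0.20 in WT and 0.37, -0.05, -0.06 and -0.17 in miR-223KO. miR-223KO replicates 1 to 3 lay above every WT sample, and replicate 4 lay below WT replicate 1. Its difference was 0.30 (SE 0.19, limma adjusted p = 0.976), at 0.33 on slide 1 and 0.28 on slide 2. Npc2, its soluble partner, differed by 0.22 (SE 0.17). Of the enzymes that esterify cholesterol for storage, Soat2, the hepatocyte form, differed by 0.08 (SE 0.24) and Soat1, the broadly expressed form, by 0.18 (SE 0.19). A dimmer Soat1 probe gave 0.25 (SE 0.19), and the remaining one, not above background on enough arrays to be tested, lay at -0.15. With single samples left out Soat2 ran from -0.10 to 0.25, and within slide 2 Soat1 was at -0.014 and Soat2 at -0.07. The LXR genes themselves differed little on average, with Nr1h3 (LXR alpha) at 0.09 (SE 0.25) and Nr1h2 (LXR beta) at -0.03 (SE 0.19), although Nr1h3 gave 0.70 on slide 1 and -0.51 on slide 2.

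Within the slides the members' differences parted. Their median was 0.19 on slide 1 and -0.0091 on slide 2, and for the 13 apolipoproteins it was 0.13 and -0.43. Of 33 members, 16 had the same sign on both slides (48.5%, against 45.1% of all genes). A test of whether the slides differed (limma, slide by genotype) reached an unadjusted p under 0.05 for 6 members, Apoc1, Apoe, Apoh, Lipc, Lpl and Nr1h3, against 9.65% of all genes, and 0 members passed after adjustment (smallest adjusted p 0.460). WT replicate 4 was the highest of 8 arrays for 5 of 13 apolipoproteins, where it was highest for 14.6% of all genes, and its apolipoprotein median was 0.87 against 0.20 to 0.65 on the other arrays. It also had the fewest spots above background in Cy5. Without it, 10 of 13 apolipoproteins lay above 0, with a median of 0.13. Median centring in place of loess raised the median of all genes to 0.09 and that of the apolipoproteins to 0.34, with 12 of 13 above 0, so the direction of this group depended on the scaling. Under each of these fits 0 members passed the test.

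**Figure D4:**
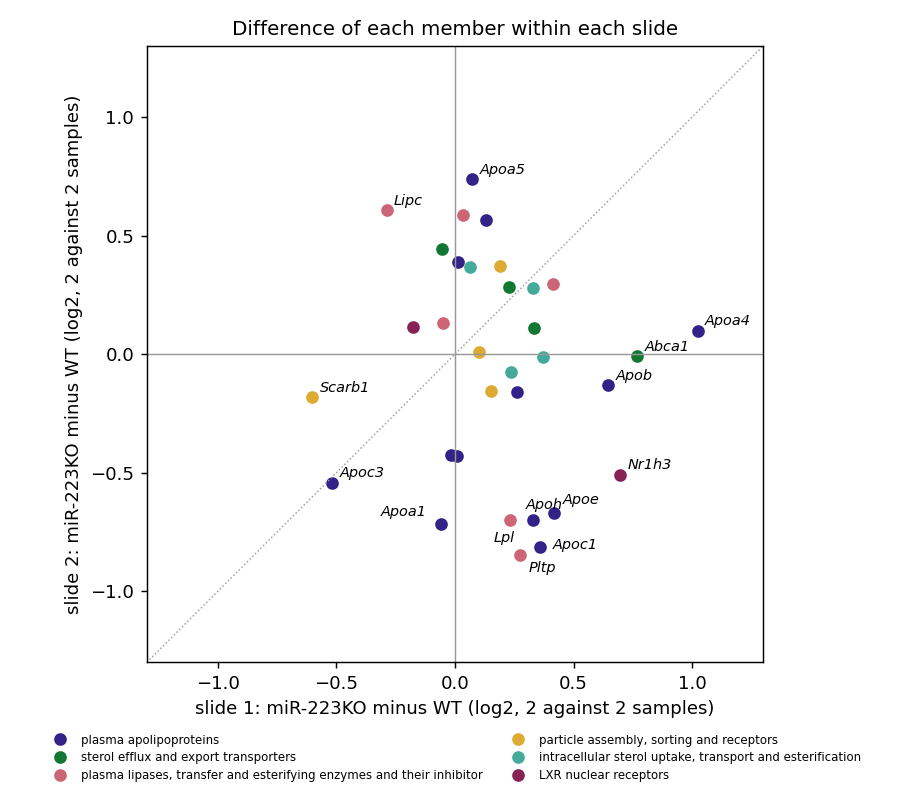
Difference between miR-223KO and WT (log2, 2 against 2 samples) of each of the 33 members on slide 1 (horizontal) and slide 2 (vertical), coloured by role. The dotted line marks equal differences. Apoe, Apoc1, Apoh, Lpl, Pltp and Nr1h3 lie in the lower right, above 0 on slide 1 and below it on slide 2, while Apoc3 lies on the dotted line.

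Other genes of lipoprotein handling were taken from a list of 50, of which 47 were tested. None passed the test, with 25 above 0, 22 below and a median of 0.02. With median centring 35 lay above 0, in Cy5 alone 27 and from scanner signals without loess 20. Of the 47, 5 had an unadjusted p under 0.05 (limma), against 4.71% of all genes. In 3 of the 47 the groups did not overlap, against 2.75% of all genes. The nearest was Vldlr, the VLDL receptor, which measured -0.92, -0.85, -0.99 and -0.71 in WT and 0.45, -0.44, 0.55 and 0.09 in miR-223KO. Its groups did not overlap, the difference was 1.03 (SE 0.22, limma adjusted p = 0.435), and 6 of 8 arrays had it well above background. Lipa, lysosomal acid lipase, differed by 0.55 (SE 0.18), and Stard4, a cholesterol carrier induced when sterols are low, by -0.61 (SE 0.20), both with groups that did not overlap and with an adjusted p of 0.976. Of 20 LXR target genes, some of them members, 13 lay above 0 and 7 below, with a median of 0.11. With median centring 18 lay above 0, and in Cy5 alone 10. None of the 20 passed, and 1 had an unadjusted p under 0.05 (limma), against 4.71% of all genes. The smallest unadjusted p values were those of Scd1, the stearoyl-CoA desaturase, at 0.48 (SE 0.22), Abca9 at 1.14 (SE 0.65), where miR-223KO replicate 3 alone stood at 4.02, and Apoc2.

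Markers of other cells were read beside these genes, and none of them passed the test. At an unadjusted p under 0.05 (limma) stood 2 of 10 macrophage and 2 of 8 endothelial markers. So did 1 each of 8 hepatocyte, 3 neutrophil, 5 cholangiocyte and 3 enterocyte markers, where the share over all genes was 4.71%. Groups did not overlap for the macrophage marker Csf1r, at 0.54 (SE 0.20, limma adjusted p = 0.976), and for S100a9. That share over all genes was 2.75%. Of 10 Kupffer cell and macrophage markers 9 lay above 0, with a median of 0.43, and 7 of 8 endothelial markers, with a median of 0.12; under the other scalings 9 or 10 and 6 to 8 of them lay above 0. All 8 hepatocyte markers lay below 0, with a median of -0.12, Alb lowest at -0.66, but with median centring 7 of the 8 lay above 0, with a median of 0.16. In Cy5 alone 5 of the 8 lay above 0, with a median of 0.04, and from scanner signals without loess 1. Marker means were also taken per array, less the mean of all genes tested on that array. For the macrophage markers this ran from -0.51 to 0.53 in WT and from -0.20 to 0.57 in miR-223KO. Taken the same way, the endothelial mean ran from -0.25 to -0.04 and from -0.0029 to 0.13, and the hepatocyte mean from 0.26 to 0.84 and from 0.25 to 0.60. Of 6 neutrophil markers 3 were tested, 2 of them above 0 (1 in Cy5 alone), with S100a9 at 0.61 (SE 0.21, limma adjusted p = 0.976) and groups that did not overlap. Of 5 cholangiocyte markers 4 lay below 0 (3 with median centring or in Cy5 alone), with Krt7 lowest at -0.58, and the 6 stellate cell markers were split evenly, 3 on each side. The enterocyte marker Sis was at -0.42. Of 6 adipocyte markers 3 were tested and all lay below 0 (2 of them above it in Cy5 alone), with Plin1, Lep and Retn well above background on no more than 1 array. Abca1, Abcg1, Lipg and Npc1 are expressed in macrophages or endothelium as well as in hepatocytes, and the part of these cells in the members' values was not tested.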

How the data were processed

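Per the file headers, arrays were read with Agilent Feature Extraction 12.0.3.1 (protocol GE2_1200_Jun14, design 014868, grid mm9), and the submitters' processing notes name the same tool. Intensity of spots and of local background stands in the deposited scanner files, beside a deposited log10 ratio of processed Cy5 over Cy3. The authors' table holds log2 ratios of processed signals and their log2 fold change. Here, median signals were background-corrected (normexp, offset 50, limma 3.58.1, R 4.3.3; flagged local backgrounds replaced by the array's median) and normalised by loess, with controls and flagged spots at weight 0 but flagged spots kept in the values. A probe entered when 4 or more of 8 arrays had its Cy5 well above background, a gene was represented by its brightest probe, and lmFit and eBayes gave two-sided tests. Differences of single channels follow Aquantile normalisation, which affects how they part. Probes were named through RefSeq accessions (28462) or table symbols; 5810 had none. Array number limits precision. Code was tested on simulated data.

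Members and lists were chosen with earlier results of these data known. Members given sample by sample are the 8 with the smallest unadjusted p (none passed the test, and no groups were separate); of other lists, the 3 smallest. Alternatives covered background, scaling, filter, flagged spots, probe choice, channel, slide, replicate number and each left-out sample. Same-numbered samples did not deviate together (correlations of deviations -0.01, 0.07, 0.01 and -0.03 for numbers 1 to 4). RefSeq positions on GRCm38.p6 served for the microRNA and for neighbours of genes.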

Additional observations from a re-analysis of the deposited data

Results flagged for a closer look

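In 66 groups of 4 samples (33 members in WT and in miR-223KO), 6 held a sample far from the other 3, by a gap to the nearest of them that took up most of the group's range, and chance picks out about 1 group in 20. WT replicate 4 stood at 0.87 for Apob, with the other WT samples at 0.07 to 0.18. WT replicate 1 stood at 0.80 for Apoc3, below the others at 1.21 to 1.27. miR-223KO replicate 2 stood at 1.56 for Abca1, with the others at 0.49 to 0.56, and at 0.49 for Abcg5, with the others at -0.017 to 0.03. miR-223KO replicate 1 stood at 0.46 for Soat2, with the others all at 0.09, and at 0.22 for Nr1h3, with the others at -0.70 to -0.56. Abca1, Abcg5, Soat2 and Nr1h3 thus each had a single high miR-223KO sample, always on slide 1. What set these samples apart was not tested.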

How the results depend on the processing

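Under each of 26 alternatives 0 members passed the test, with a lowest limma adjusted p of 0.537. The same held for the other lipoprotein and LXR target lists. In every fit that held them, 11 of 33 members kept their sign. Of these, Apoa4, Apoc3 and Apon were in only 23 fits, with no value without flagged spots or from the authors' table. Aquantile scaling, the blocks and the trended robust fit leave a group difference as it was, so they could not turn a sign. Nor could the fits of every probe on its own and without the filter on dim probes, which took the same probe per member. The count over all genes, 1, became 3 with offset 16, 3 with probes above background on all arrays, 2 without background subtraction, 2 without flagged spots, 2 with slide as a block, 2 with a trended robust fit, 0 within slide 2, and 1 to 4 with single samples left out. With the replicate block, for numbers that did not pair the samples, it was 3. The members' median, 0.09, was 0.33 with median centring, -0.0091 within slide 2 and 0.069 to 0.15 with samples left out. Signs turned as follows. In Cy5 alone: Abcg5 -0.025, Nr1h3 -0.032. In the authors' deposited table: Apoa5 -0.10 (by its dimmer probe, the only one there), Lcat -0.024, Sort1 0.035, Nr1h2 0.017. Scanner signals without loess: Lcat -0.024, Lrp1 -0.084, Sort1 0.035, Nr1h2 0.017. Without flagged spots, which left 21 members: Apoa5 -0.13, Apob -0.085 and Lrp1 -0.0092 (each by a dimmer probe, as the brightest dropped out), Nr1h2 0.10, Nr1h3 -0.12. Mean of probes: Apob -0.054, Lpl 0.0035. Only the table's probes, chosen after seeing the data: Apoa5 -0.19, Lrp1 -0.0092. Without background subtraction: Sort1 0.00063. Median centring: Apoa1 0.017, Apoc1 0.20, Apoc4 0.068, Apoe 0.34, Apoh 0.17, Apom 0.0066, Nr1h2 0.086. Within slide 1: Apoc1 0.36, Apoc4 0.0085, Apoe 0.42, Apoh 0.33, Abcg1 -0.055, Lcat -0.051, Lipc -0.29, Lpl 0.23, Pltp 0.27, Sort1 0.15. Within slide 2: Apoa2 -0.16, Apob -0.13, Abca1 -0.0091, Soat1 -0.014, Soat2 -0.074, Nr1h2 0.12, Nr1h3 -0.51. With single samples left out: Apoa2 -0.17 to 0.24, Apoc1 -0.57 to 0.017, Apoc4 -0.34 to 0.0012, Apoe -0.32 to 0.13, Apoh -0.39 to 0.019, Lcat -0.15 to 0.22, Pltp -0.52 to 0.043, Lrp1 -0.033 to 0.15, Sort1 -0.11 to 0.091, Soat2 -0.096 to 0.25, Nr1h2 -0.11 to 0.099, Nr1h3 -0.12 to 0.21. The causes were not tested.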
